A study of Mus musculus with 57 samples.

Results

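In mouse epiblast stem cells (EpiSCs) lacking Wnt3, 1402 regions carried H3K27me3 before Wnt stimulation and overlapped neither H3K4me3 nor Ring1b. They were chosen from the lists of enriched regions of unstimulated (0 h) Wnt3KO cells. A region of the first H3K27me3 library had to overlap the second library and no region of the H3K4me3 list, of either Ring1b list or of the input lists. Of 4332 regions in the first library, 3543 were shared with the second, and 146 of these overlapped an input region. The remaining 3397 split into the 1402 H3K27me3-only regions (41.3%) and 1995 marked regions, of which 805 overlapped H3K4me3 only, 650 Ring1b only and 540 both. The H3K27me3, H3K4me3, Ring1b and input values at 0 h therefore chose the regions and are described below without a test, while the later H3K27me3 lists, ATAC-seq and H3K27ac were not used in the choice.

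H3K27me3 is written by Polycomb repressive complex 2, and Ring1b is the ubiquitin ligase of Polycomb repressive complex 1, which can bind the mark through its CBX subunits. H3K4me3 lies at active promoters and at CpG islands, and promoters that carry it together with H3K27me3 are called bivalent and are common at silent developmental genes of pluripotent cells. ATAC-seq lists chromatin open to a transposase, and H3K27ac marks active promoters and enhancers. H3K27ac and H3K27me3 cannot sit on the same histone tail because both modify lysine 27.

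The EpiSC lines were derived from E6.0 epiblast and kept in Activin A, FGF and IWP2, which blocks the secretion of Wnt proteins. The Wnt3KO cells, which lack the Wnt3 gene, were profiled by ChIP-seq at 0 h, after 5 h of Wnt3a protein (125 ng/mL), and after 6, 12 and 72 h of CHIR99021 (3 µM), an inhibitor of GSK3 that activates the pathway inside the cell. In both treatments IWP2 was withdrawn at the start. Wild-type EpiSCs gave H3K27ac at 0 h and after 24 h of CHIR99021 (2 libraries) and ATAC-seq at 0 h and 48 h, and wild-type embryos gave ATAC-seq at E6.0 (2 libraries), E7.2 (2 libraries) and in the posterior part at E7.5. Open chromatin was therefore measured in another genotype than H3K27me3, and the embryo material held cells of any type present in the dissected tissue.

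Without read counts in the lists the depth is unknown, and a region absent from a list may have been missed. The input lists held 253 and 424 regions, and the others ranged from 604 regions (Ring1b at 72 h) to 72433 regions (one E7.2 ATAC-seq library). H3K27me3 lists had 4332 and 6236 regions at 0 h, 1012 after 5 h of Wnt3a, and 2572, 3056 and 3150 after 6, 12 and 72 h of CHIR99021. The folder names inside the files put the lists in 7 processing folders, which may be batches. No main test took the folder into account. Only an alternative that paired E6.0 and E7.2 libraries by replicate number, which coincides with the folder, did so. Nothing in the labels tells whether replicates are separate cultures or litters. The p-values thus measure only the spread between libraries, which may be technical. The labelled cell types could not be checked against markers, because lists of regions without a gene annotation of their build hold no expression values.

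Most H3K27me3-only regions were not isolated from the other marks. In all, 1191 of 1402 (85.0%) lay within 5 kb of an H3K4me3 or Ring1b region of 0 h, and these are called flanking regions here. Of the flanking regions, 652 were near H3K4me3 and not Ring1b, 455 near both and 84 near Ring1b and not H3K4me3. The other 211 (15.0%) had neither mark within 5 kb and are called solitary. The median distance to the nearest H3K4me3 region was 1132.5 bp, and 1107 regions (79.0%) were within 5 kb of one, a zone that made up 5.96% of the genome span. Ring1b was nearer than 5 kb for 539 regions (38.4%), and the median distance to it was 142260 bp. The label of H3K27me3 without the other marks thus held for the listed base pairs, while the surroundings of most regions carried H3K4me3.

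**Figure D1:**
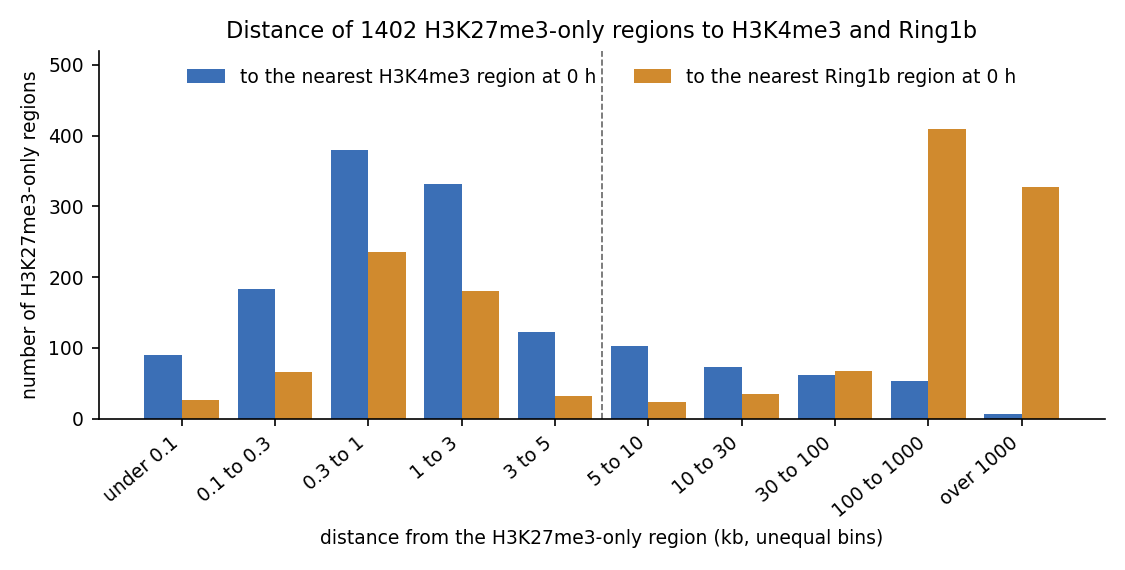
Number of the 1402 H3K27me3-only regions by distance (kb, unequal bins) to the nearest H3K4me3 region (blue) and the nearest Ring1b region (orange) of unstimulated Wnt3KO cells. The dashed line is at 5 kb: 1107 regions lie left of it for H3K4me3 and 539 for Ring1b.

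Of the same 1402 regions, 793 (56.6%; 779 flanking and 14 solitary) belonged to runs, with gaps of at most 10 kb, that also held a marked H3K27me3 region, and 326 (23.3%) had no other shared H3K27me3 region in their run. The lists are of the narrow type, with a median region length of 500 bp in the first library, so pieces of one broad H3K27me3 domain and separate sites cannot be told apart from them. H3K27me3-only regions were shorter than marked ones, with a median of 464.5 bp against 669 bp. Their median fold enrichment, as the authors' caller gave it, was 4.71 against 5.09 in the first library and 6.26 against 7.30 in the second. Only 123 of them (8.77%) were at least 1 kb long, against 521 marked regions (26.1%).

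Several regions sat at the edge of the rule. In 23 the overlap with the second H3K27me3 library was under 50 bp, the smallest being 6 bp, against a median of 366 bp. A gap of at most 100 bp separated 91 of them from an H3K4me3 region, while 98 regions counted as H3K4me3-only shared 100 bp or less with that mark, down to 2 bp. Just outside the rule on replicates, 577 unmarked regions of the first library were absent from the second, 44 of them by 100 bp or less. An input region lay within 100 kb of 31 H3K27me3-only regions, and these were left out of the regions named below.

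The H3K4me3 regions beside the H3K27me3-only regions overlapped H3K27ac less often than other H3K4me3 regions without shared H3K27me3. The 1107 regions near H3K4me3 had 835 different nearest H3K4me3 regions. Of these, 419 (50.2%) overlapped a shared H3K27me3 region, against 7.12% of all 16287 H3K4me3 regions, and 33.1% overlapped Ring1b, against 6.21%. Both shares follow in part from the rule, since H3K27me3, H3K4me3 and Ring1b at 0 h chose the regions. The other 416 had no shared H3K27me3 region of their own, and H3K27ac was compared between them and the 14711 H3K4me3 regions that were neither nearest to an H3K27me3-only region nor overlapped by shared H3K27me3.

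In Wnt3KO cells, the share of these 416 with H3K27ac was 17.1% before stimulation and 17.8%, 21.2% and 19.2% after 6, 12 and 72 h, while the 14711 others gave 59.4%, 48.2%, 55.4% and 54.3%. In wild-type cells the 416 gave 14.9% at 0 h and 53.4% and 51.4% in the 24 h libraries, against 56.7%, 85.7% and 84.4%. The share was lower in 7 of 7 libraries, with a mean difference of -35.6 percentage points (range -42.3 to -30.4). The exact two-sided sign-flip permutation test over the 7 libraries gave p = 0.0156, the smallest they allow, and 0.0223 after Benjamini-Hochberg adjustment over 20 tests added after the data were seen. The 416 were picked by H3K27me3 within 5 kb at 0 h, so the choice bears on the direction. The p-value is therefore no independent support for the difference. The 416 H3K4me3 regions were also shorter (median 971.5 against 1248 bp) and of lower fold enrichment (median 14.3 against 23.4 by the authors' values). Among H3K4me3 regions at or above the median fold the difference was -25.2 points, and among those of at least 1 kb it was -32.2 points. Both classes lacked only H3K27me3 shared by the 2 replicates. Among H3K4me3 regions that overlapped H3K27me3 of neither replicate the difference was -27.9 points. ATAC-seq regions covered 92.2% of the 416 on average over 7 libraries and 94.8% of the others, a difference of -2.67 points that was negative in 7 of 7 (exact permutation p = 0.0156, adjusted 0.0223). A low share of H3K27ac was not particular to these neighbours. The 741 H3K4me3 regions with a shared H3K27me3 region of their own that were not nearest to an H3K27me3-only region overlapped H3K27ac in 8.64% at 0 h in Wnt3KO and 2.16% in wild-type cells, below the 17.1% and 14.9% of the 416, and in 46.8% and 43.2% in the wild-type 24 h libraries.

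**Figure D2:**
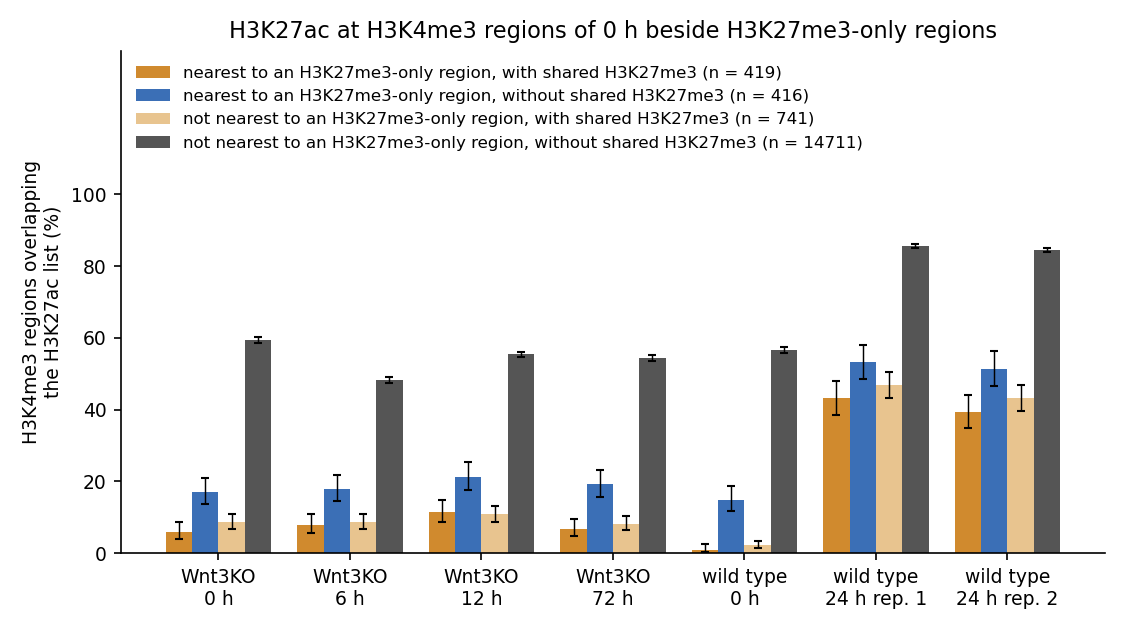
Share (%) of H3K4me3 regions of 0 h that overlap each of 7 H3K27ac lists, with 95% Wilson intervals, for regions nearest to an H3K27me3-only region with (orange) and without (blue) a shared H3K27me3 region of their own, and for regions not nearest to one with (light orange) and without (grey) shared H3K27me3. Blue bars run from 14.9% to 53.4%, below the grey bar of the same library in each of the 7.

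The H3K27me3-only regions were found again in later H3K27me3 lists less often than the marked regions in each of the 4 lists. After 5 h of Wnt3a, 174 of 1402 (12.4%, 95% Wilson interval 10.8 to 14.2%) overlapped a listed region, where 19.4% of all 3397 shared regions did. After 6 h of CHIR99021 the count was 491 (35.0%), against 40.3% of all. At 12 h it was 572 (40.8%), against 44.9%, and at 72 h 447 (31.9%), against 39.5%. Averaged over the lists, 30.0% of H3K27me3-only and 40.2% of marked regions were found again, a difference of -10.2 ± 2.77 points (SD, n = 4 lists). The difference had the same sign in 4 of 4 lists, but 4 lists cannot give an exact permutation p below 0.125, which is the value reached (0.167 adjusted over the 4 planned tests). It was -5.31 points when the summit of a region had to lie inside the listed region, -5.80 points when at least 50% of the smaller region had to be shared, and -19.3 points for regions over 5 kb from H3K4me3, Ring1b and input.

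The marks carried at 0 h were also related to how well the 0 h libraries matched each other. Of the first library's regions without H3K4me3, Ring1b or input, 1402 of 1979 (70.8%) were listed in the second, against 93.8% of marked regions. Of the second library's regions, 38.8% without and 62.8% with such a mark were listed in the first. Unmarked regions within 5 kb of a mark matched in 76.9% and those farther off in 49.0%. The later lists kept this order without having been used in the choice: solitary regions were found again in 7.11%, 25.1%, 33.6% and 18.0% after 5, 6, 12 and 72 h, and flanking regions in 13.4%, 36.8%, 42.1% and 34.3%. Solitary regions were lower in 4 of 4 lists, with a mean difference of -10.7 points (exact permutation p = 0.125, the smallest possible, 0.132 adjusted over the 20 added tests), and of -5.24 points with lists of equal length.

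**Figure D3:**
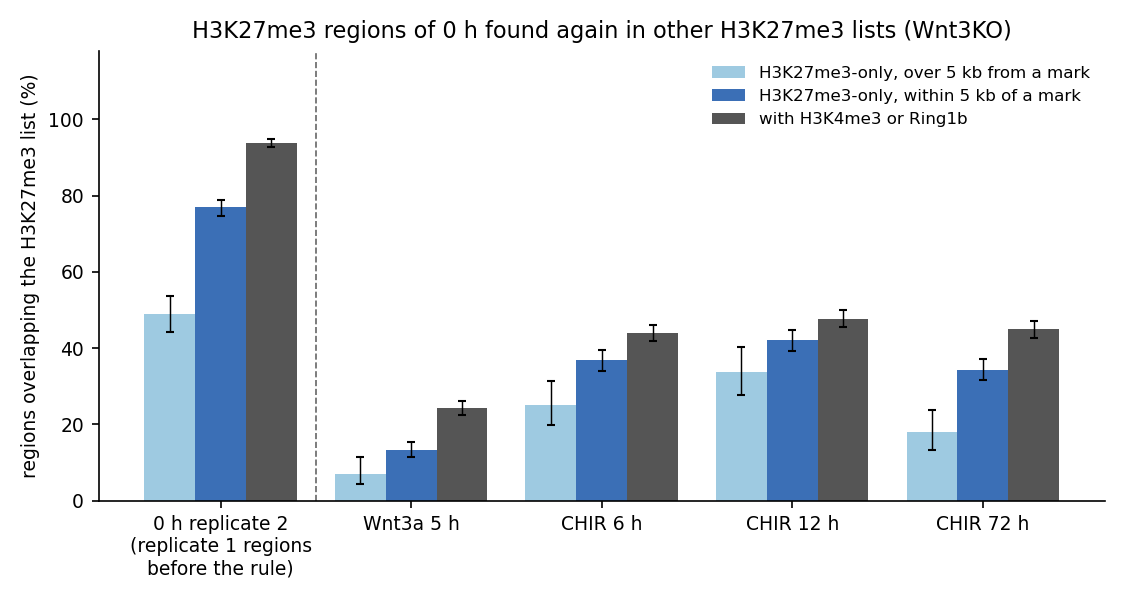
Share (%) of 0 h H3K27me3 regions of the first Wnt3KO library that overlap another H3K27me3 list, with 95% Wilson intervals, for solitary (light blue), flanking (blue) and marked (grey) regions. Left of the dashed line all unmarked regions of the first library are set against the second, which the rule used; right of it solitary regions are the lowest of the 3 classes in each of the 4 lists.

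Across the 3 CHIR99021 lists, 153 H3K27me3-only regions were listed at 6, 12 and 72 h and 500 at none of these times (10.9% and 35.7%), against 21.0% and 28.1% of the marked regions. Adding the Wnt3a list, 51 (3.64%) were listed in all 4 and 476 (34.0%) in none, against 10.9% and 26.0% of marked regions. The 51 were longer than the 476 (median 1107 against 397 bp) and had a higher median fold at 0 h by the authors' values (5.91 against 4.46). Solitary regions made up 4 of the 51 (7.84%) and 104 of the 476 (21.8%). The lists themselves were shared unevenly by class: regions with Ring1b only were found again in 26.9% at 5 h and 36.6% at 72 h, and regions with H3K4me3 only in 17.8% and 50.1%. The 5 h list came from the processing folder of the first H3K27me3 and first Ring1b library, and the 72 h list from that of the second H3K27me3 library and the 0 h H3K4me3 library. The part of the folders in these shares was not tested.

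The region of highest fold enrichment in the first library was chr1:172999529-173000229 (mm9), 701 bp long and 4504 bp from H3K4me3. Its fold was 11.3 in the first and 12.8 in the second library by the authors' values, and it was listed again after Wnt3a and at 6 and 72 h. The next, chr4:149184277-149185085, was solitary, at 35889 bp from the nearest H3K4me3 region, and had a fold of 10.2 and 9.80. It was listed again after Wnt3a and at 12 and 72 h, and was open in one E7.2 library and at E7.5. The third, chr11:88013252-88014911, was 1660 bp long, lay 2303 bp from H3K4me3, and was listed again at 6 and 12 h. The fourth, chr10:51744424-51745928, lay 757 bp from Ring1b and 1225 bp from H3K4me3 and was in all 4 later H3K27me3 lists. The fifth and sixth were on the same chromosome with a fold of 8.90 each: the solitary chr8:126124226-126124805 was listed again at 72 h only, and chr8:126148223-126149090, 3233 bp from H3K4me3, at 6, 12 and 72 h. Of these 6 strongest regions 2 were solitary and 4 flanking, and none overlapped H3K27ac or a later H3K4me3 or Ring1b list.

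The longest H3K27me3-only region, chr8:12131446-12134653, was 3208 bp long and solitary, with no H3K4me3 within 249940 bp and no Ring1b within 249320 bp. All 4 later lists held a piece of it, of 434 to 735 bp, and none of the ATAC-seq, H3K27ac, H3K4me3 or Ring1b lists did. It was the only solitary region among the 6 of highest fold that were listed in all 4 later lists. Another of these 6, chr5:24033545-24034554, lay 281 bp from H3K4me3 and 238 bp from Ring1b, was listed again over 510 to 939 bp, and overlapped neither mark at any time measured.

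Open chromatin was less frequent at the H3K27me3-only regions than at the shared H3K27me3 regions as a whole. In wild-type EpiSCs 80 of 1402 (5.71%) overlapped an ATAC-seq region at 0 h, where 35.6% of all 3397 shared regions did, and 57 (4.07%) at 48 h of CHIR99021, against 30.0%. These EpiSC libraries, 1 per time, came from different processing folders, so time and folder cannot be told apart. At E6.0 the counts were 262 (18.7%) and 312 (22.3%) in the replicates, against 51.3% and 54.0%. At E7.2 they were 103 (7.35%) and 223 (15.9%), against 31.2% and 48.0%, and in the E7.5 posterior library 96 (6.85%), against 31.4%. Marked regions were open in 60.4% on average and H3K27me3-only regions in 11.5%, a difference of -48.8 ± 6.44 points (SD, n = 7 libraries). It was negative in 7 of 7 libraries (exact two-sided sign-flip permutation test, p = 0.0156, the smallest possible, adjusted p = 0.0313 over the 4 planned tests). Its direction was in large part set by the rule, which left H3K4me3 overlap to the marked regions. ATAC-seq regions covered 94.4% of all H3K4me3 regions of 0 h on average. The p-value is therefore no independent support for the difference. With the summit in place of the whole region, a count that depends less on length, the difference was -25.3 points with the same p.

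Each kind of marked region was open more often than the H3K27me3-only regions. Regions with Ring1b only, which overlapped no H3K4me3 at 0 h either, came closest, at 34.5% on average. The difference was -23.0 points, and they were higher in 7 of 7 libraries (exact permutation p = 0.0156, adjusted 0.0223 over the 20 added tests). The Ring1b lists of the rule separated these classes, so the p-value is not independent of the choice. Regions with Ring1b only were also longer (median 625 against 464.5 bp), and the part of length in this difference was not tested. Regions with H3K4me3 only were at 69.0% and regions with both marks at 78.7%. Within the H3K27me3-only regions, solitary ones were open in 7.45% and flanking ones in 12.3% on average, a difference of -4.82 points that was negative in 7 of 7 libraries (exact permutation p = 0.0156, adjusted 0.0223). Flanking regions lay near H3K4me3 or Ring1b by definition. At 40 of the 80 H3K27me3-only regions open in EpiSCs at 0 h, the ATAC-seq region also overlapped an H3K4me3 region of 0 h. The split thus bears on the direction, and its p-value is no independent support. The split by distance was made after the distances were seen, and with the summit the difference was -3.17 points. It lost its call (-3.89 points, exact permutation p = 0.125) among regions at or above the median H3K27me3 fold.

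**Figure D4:**
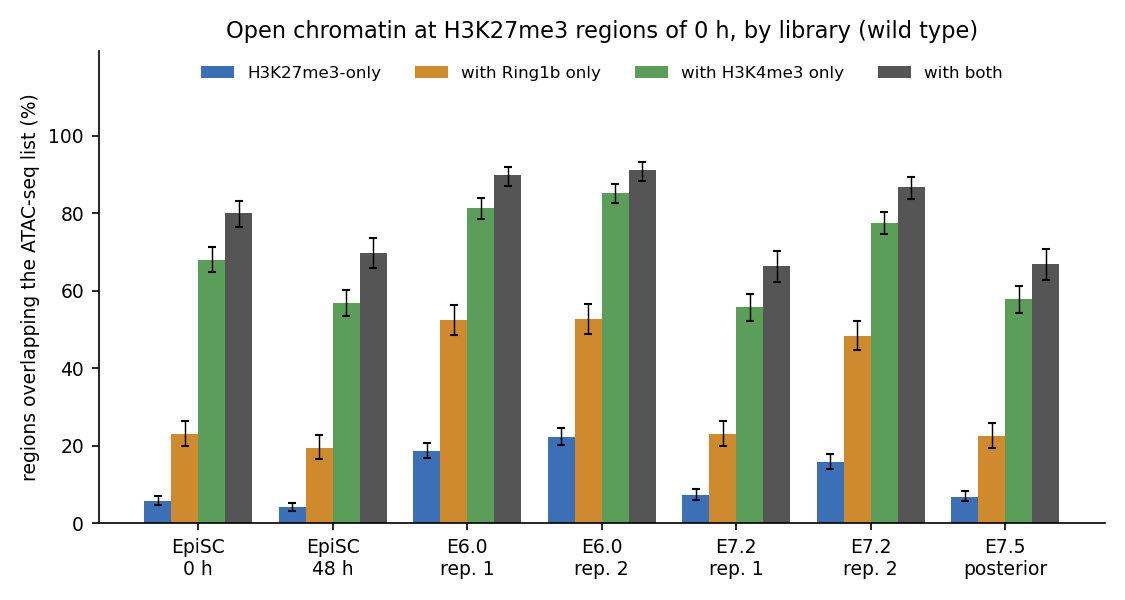
Share (%) of 0 h H3K27me3 regions that overlap each of 7 wild-type ATAC-seq lists, with 95% Wilson intervals, by the marks they carried in Wnt3KO cells. The H3K27me3-only bars (blue) run from 4.07% in EpiSCs at 48 h to 22.3% in the second E6.0 library and are the lowest of the 4 classes in each library.

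Over the 7 libraries 997 H3K27me3-only regions (71.1%) were open in none, 405 (28.9%) in at least 1 and 17 (1.21%) in all 7. Of all 3397 shared regions, 38.8% were open in none and 18.0% in all 7. In both E6.0 libraries 210 regions (15.0%) were open, against 47.1% of all shared regions, and 134 of them (9.56% of the 1402) were open in neither EpiSC library, against 11.9%. Open in both E6.0 and neither E7.2 library were 53 regions (3.78%), near the 4.30% of all shared regions, and the reverse was seen at 2 (0.143%), against 0.177%. As shares of all regions, these stage patterns were about as frequent among all shared regions, although far fewer H3K27me3-only regions were open at E6.0. Among regions open in both E6.0 libraries, 134 of 210 H3K27me3-only regions were open in neither EpiSC library, against 403 of 1599 shared regions. Open in neither E7.2 library were 53 of the 210, against 146 of the 1599. The mean share was 20.5 ± 2.52% at E6.0, compared with 11.6 ± 6.05% at E7.2 (SD, n = 2 each), a difference of -8.84 points that did not pass the test (exact permutation p = 0.333, the smallest that 2 against 2 allows). The E6.0 and E7.2 libraries of one replicate number shared a processing folder, and within these folders the difference was -11.3 and -6.35 points. The E7.2 lists were also of very different length (33881 and 72433 regions, against 57569 and 61933 at E6.0). With all ATAC-seq lists shortened to equal length the shares were 10.8% and 12.8% at E6.0, 7.35% and 8.27% at E7.2, 5.21% at E7.5 and 4.07% and 3.50% in EpiSCs, and the difference of the stages was -3.99 points. At E6.0 75.3% of marked regions were open, compared with 59.3% at E7.2. The E7.2 mean was 56.8% of the E6.0 mean for H3K27me3-only regions and 78.8% for marked regions. Whether the stages differed more in one class than in the other was not tested.

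Among the 17 regions open in all 7 libraries, the one of highest fold in EpiSCs at 0 h was chr11:11584860-11585314, which lay 293 bp from H3K4me3 and was listed in H3K27me3 again at 72 h. Open chromatin covered at least 344 of its 455 bp in every ATAC-seq list. At chr2:181195339-181195675, the next in that order, the ATAC-seq regions covered only 39 to 229 of 337 bp. One of the 17, chr12:111514629-111516291, was also in all 4 later H3K27me3 lists and shared 397 of its 1663 bp with Ring1b after Wnt3a, and the ATAC-seq regions covered 177 to 705 bp of it. Its wide extent thus held open chromatin and H3K27me3 in the same listed region, without showing both on the same stretch. In EpiSCs 31 regions (2.21%) were open at both times, against 25.9% of all shared regions. At 0 h only 49 (3.50%) were open, against 9.69%, and at 48 h only 26 (1.85%), against 4.09%. Of these 26, 12 were also open in the E7.5 posterior library, against 96 of all 1402 (6.85%).

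H3K27ac was almost absent from the H3K27me3-only regions. In Wnt3KO cells 0, 1, 1 and 0 of the 1402 overlapped H3K27ac at 0, 6, 12 and 72 h, where 0.677%, 1.27%, 1.85% and 1.24% of all 3397 shared regions did. In wild-type cells 2 overlapped it at 0 h, against 0.294%, and 36 (2.57%) and 31 (2.21%) in the 24 h libraries, against 13.3% and 12.4%. Of these, 27 (1.93%, against 9.95% of all shared regions) were in both 24 h libraries, 5 of them open in EpiSCs at 48 h and 1 listed in H3K27me3 at 72 h in Wnt3KO cells. Of all 1402 regions, 4.07% were open in EpiSCs at 48 h and 31.9% were listed in H3K27me3 at 72 h. The mean share was 0.723% against 7.05% of marked regions, a difference of -6.33 ± 7.93 points (SD, n = 7 libraries) that was negative in each (exact permutation p = 0.0156, adjusted p = 0.0313 over the 4 planned tests). Most of that size came from the 24 h wild-type lists, which held 29056 and 27422 regions where the other H3K27ac lists held 10161 to 14453. Without both 24 h lists the difference was -1.72 points, and 5 libraries cannot give a p below 0.0625, the value reached. With lists of equal length it was -1.31 points, with the summit -2.40 and with 50% of the smaller region shared -3.99 points, each with p of at most 0.0313 (exact permutation tests). The rule bears on this difference too, since it left H3K4me3 overlap to the marked regions. H3K27ac overlapped 59.3% of all H3K4me3 regions of 0 h on average. Against regions with Ring1b only, which had H3K27ac in 1.16% on average, the H3K27me3-only regions differed by -0.44 points, lower in 5 of 7 libraries (exact permutation p = 0.0938, adjusted 0.125), and the single differences ran from -1.48 to 0.14 points.

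Few H3K27me3-only regions gained H3K4me3 under CHIR99021. The count was 21 (1.50%) at 6 h, 41 (2.92%) at 12 h and 62 (4.42%, 95% Wilson interval 3.46 to 5.63%) at 72 h, where 28.1%, 33.8% and 38.3% of all 3397 shared regions overlapped H3K4me3, most of them already at 0 h. Regions with Ring1b only, which had no H3K4me3 at 0 h either, gained it in 4.15%, 9.69% and 15.7%. The H3K4me3 lists of 0 and 72 h came from 1 processing folder and those of 6 and 12 h from another. Their median region lengths were 1237 and 1230 bp against 930 and 936 bp. The higher shares at 72 h than at 6 and 12 h thus cannot be told apart from the folder. As regions without the mark could only gain it, no test was made. Most of these regions lay next to H3K4me3 already present at 0 h. Of the 62 regions at 72 h, 54 were within 1 kb of H3K4me3 at 0 h, against 653 of all 1402 (46.6%). At 49 of the 62 the H3K4me3 region of 72 h also overlapped one of 0 h. The median share of the H3K27me3-only region that the 72 h region covered was 27.8%. When the summit had to be covered, 1.57% gained H3K4me3 at 72 h, and of the solitary regions 3 of 211 (1.42%) did.

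**Figure D5:**
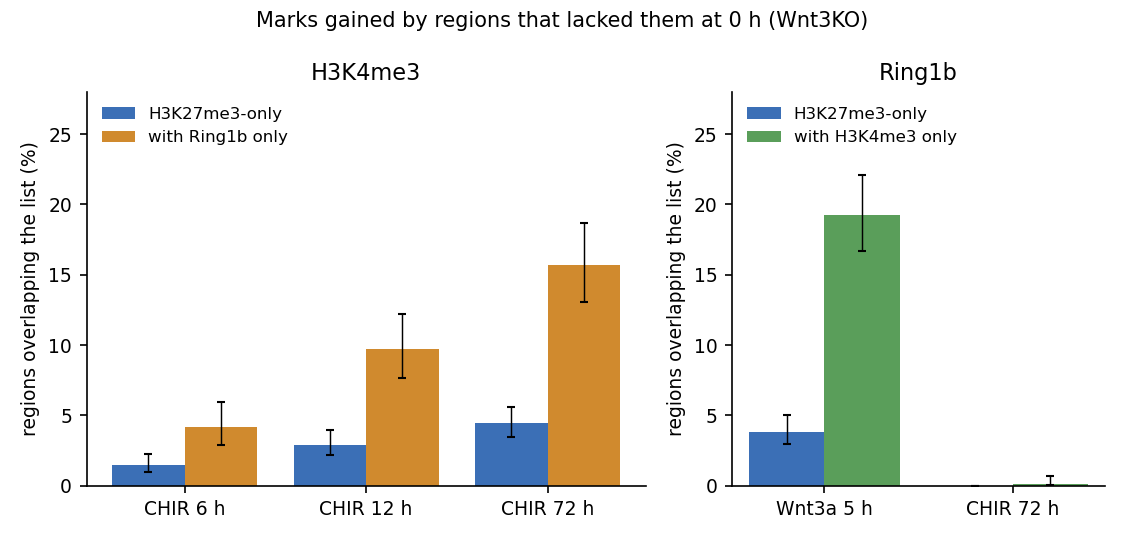
Share (%) of regions that overlap H3K4me3 (left) or Ring1b (right) after Wnt stimulation of Wnt3KO cells, with 95% Wilson intervals where the count is above 0, among H3K27me3 regions that lacked that mark at 0 h. H3K27me3-only regions (blue) reach 4.42% for H3K4me3 at 72 h, against 15.7% of regions with Ring1b only (orange), and 3.85% for Ring1b after Wnt3a, against 19.3% of regions with H3K4me3 only (green).

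The gain of H3K4me3 with the highest fold at 72 h (38.1 by the authors' values) was at chr12:82128912-82129672. This region, 483 bp from the H3K4me3 of 0 h, was covered over all of its 761 bp. It was listed in H3K27me3 at 6 and 12 h and not at 72 h, and of the 7 ATAC-seq lists it was in the EpiSC 48 h and the E7.5 posterior list. At chr5:89317107-89317793 H3K4me3 covered 150 bp at 12 h and 484 of 687 bp at 72 h, while H3K27me3 was listed at 12 h only of the later times. In contrast, chr14:115492265-115493095 counted as a gain from 3 shared bp and kept H3K27me3 in all 4 later lists. At chr3:106905906-106906268, 100 bp from the H3K4me3 of 0 h, the mark was listed at 6, 12 and 72 h over 94, 363 and 102 bp, both wild-type 24 h H3K27ac lists covered all 363 bp, and no later H3K27me3 list held it. Of the 62 regions, 15 were also listed in H3K27me3 at 72 h, against 447 of all 1402 (31.9%).

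A gain far from earlier H3K4me3 was seen at 4 regions, over 5 kb away. A pair of them, chr1:137815050-137815602 and chr1:137815831-137817014, lay 88472 and 87060 bp from the H3K4me3 of 0 h and shared 1 H3K4me3 region at 72 h, which covered 108 and 100 bp of them. They were open in 6 and 7 of the ATAC-seq lists and in none of the later H3K27me3 lists. The third, chr1:74838616-74838918, shared 35 bp with H3K4me3 at 72 h. The fourth, chr2:74518904-74519323, lay in the window of the HoxD cluster, was covered over all of its 420 bp at 72 h and shared 46 bp with Ring1b after Wnt3a. These 4 were singled out after their values were seen.

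The Hox clusters held 4 of the 1402 regions, 3 in the HoxD and 1 in the HoxA window, and no marked region. The first H3K27me3 library listed 7 regions there in all and the second 17, while the first Ring1b library listed 55. All 4 were within 5 kb of Ring1b (375 to 4272 bp) and of low fold at 0 h, 2.42 to 2.73 in the first library by the authors' values. At chr2:74498916-74499221, also in HoxD, Ring1b covered all 306 bp after Wnt3a and H3K27me3 was listed again at 72 h.

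Ring1b was gained by 54 H3K27me3-only regions (3.85%, 95% Wilson interval 2.96 to 4.99%) after 5 h of Wnt3a, where 35.7% of all 3397 shared regions overlapped it, and by 0 at 72 h of CHIR99021, against 4.47%. Regions with H3K4me3 only gained it in 19.3% and 0.124%. The 0 h Ring1b libraries also differed from each other. With the first or the second of them left out of the rule, 1476 or 1520 regions qualified, against 1402. Whether the share after Wnt3a exceeded this mismatch at 0 h was not tested. Of the 54 regions, 43 lay within 1 kb of Ring1b at 0 h, 7 over 5 kb away and 1 was solitary. Of all 1402 regions, 327 (23.3%) lay within 1 kb of Ring1b at 0 h. The Ring1b list was the longest of its mark after Wnt3a (2244 regions) and the shortest at 72 h (604). With lists of equal length the share after Wnt3a was 0.357%, against 1.12% of regions with H3K4me3 only and 17.3% of all shared regions. The gain with the highest Ring1b fold, chr2:174123515-174123884, was 133 bp from Ring1b at 0 h and shared 151 of its 370 bp with the Ring1b region, with H3K27me3 listed at the same time point. The next, chr15:7764432-7765267, was 57 bp away and shared 82 of 836 bp. At chr19:54121800-54122368, which touched an H3K4me3 region of 0 h with a gap of 0 bp, Ring1b was gained over 146 of 569 bp, both wild-type 24 h H3K27ac lists overlapped it, all 5 embryo ATAC-seq lists did, and no later H3K27me3 list did.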

How the data were processed

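The 32 libraries with a list of enriched regions (ChIP-seq, input and ATAC-seq, mm9) were used, while the 25 samples of 4C-seq were not used here. Per the submitters' processing notes, Bowtie 1.1.0 (ChIP-seq), cutadapt 1.8.1 and Bowtie2 2.1.0 (ATAC-seq), SAMtools 0.1.19 and MACS2 2.1.0 were used, with no role or order given, and neither the background library nor, for 4 wild-type ChIP-seq lists, any tool is named there. The deposited fold enrichment is, by the file layout, a ratio of signal over local background from the authors' caller. The authors' −log10 p and −log10 q values, also deposited, served to rank regions and to set a minimum. The other deposited column, the authors' summit offset, served to locate summits.

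Overlap meant at least 1 bp. Lists hold no counts, so no count model was possible, depth is unknown, and libraries, not regions, were the units of each exact sign-flip or label permutation test (Python 3.11.15, numpy 2.4.6, pandas 2.3.3). Wilson 95% intervals cover counting error only. The threshold was 0.05. The overlap counts and tests were tested on simulated regions. Groups came from the labels, and a pair of wild-type H3K4me3 libraries with contradictory labels entered no comparison. Regions named were, leaving out those within 100 kb of input, the 6 of highest fold among all, in all 4 later H3K27me3 lists, with H3K4me3 or H3K27ac at 72 h (none had the latter), with Ring1b after Wnt3a and open in all 7 ATAC-seq lists, and the longest runs. Solitary regions and H3K4me3 gains over 5 kb away were added later. The members, lists and tests were chosen with earlier results of these data known. The bounds of the Hox windows rest on general knowledge of mm9. With no mm9 genome or annotation at hand, nearest genes, base composition and sequences are not reported here. Alternatives were a 50% overlap, a −log10 q of at least 5, lists of equal length, other replicates or distances in the rule, a minimum fold, each library left out, a replicate block and, added after seeing the data, summits and a rule from replicate 2.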

Additional observations from a re-analysis of the deposited data

Results flagged for a closer look

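A pair of wild-type H3K4me3 lists entered no comparison, because their titles and their treatment labels contradict each other. The list titled 0 h overlapped 147 of the 1402 H3K27me3-only regions (10.5%), where 43.6% of all 3397 shared regions overlapped it, and the list titled 72 h of CHIR99021 overlapped 83 (5.92%), against 36.6%. They are given here as a signal in data outside the comparisons. In the first list 108 of the 147 regions were within 1 kb of H3K4me3 in Wnt3KO cells at 0 h and 19 were solitary. In the second, 65 of 83 were within 1 kb and 7 were solitary. Of all 1402 regions, 46.6% were within 1 kb and 15.0% were solitary. The lists came from another genotype than the Wnt3KO H3K4me3 list of the rule, which overlapped none of these regions by construction.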

How the results depend on the processing

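Beside the values given with each result, 142 repeats of the 10 results reversed no direction. In 133 the side of the threshold or, for counts and gains, the size held, in 3 a call was lost and in 6 a value moved. For tested differences size was not judged: those that held ran from -56.8 to -25.3 points for ATAC-seq and from -8.99 to -1.31 for H3K27ac. The 2 H3K27me3 differences and the stage difference had too few libraries to pass 0.05. Their 15, 13 and 16 repeats among the 133 thus show only that the sign held. The number of regions was 3000 from the second H3K27me3 library alone, 211 over 5 kb from the other marks and 551 at or above the median fold. H3K4me3 gain at 72 h was 1.42% over 5 kb from the marks and 1.57% by summit, and Ring1b gain at 72 h was 0.526% without the second Ring1b library in the rule. Calls were lost without both wild-type H3K27ac lists at 24 h (-1.72 points for the regions and -36.8 points for neighbouring H3K4me3 sites, where 5 libraries cannot pass 0.05), and at or above the median fold for solitary against flanking regions in ATAC-seq (-3.89 points).

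Leaving out each library or replicate in turn gave -15.5 to -9.25 points for H3K27me3 found again, -56.8 to -47.7 for ATAC-seq, -8.99 to -4.33 for H3K27ac, -13.1 to -4.56 for E7.2 minus E6.0, 1476 to 3000 regions, 3.77% to 4.93% for H3K4me3 gain, and 0% to 0.526% for Ring1b gain. For solitary minus flanking regions it gave -13.8 to -8.77 (H3K27me3) and -5.91 to -3.51 points (ATAC-seq), and for neighbouring H3K4me3 sites -36.5 to -34.5 points. The replicate block, pairing E6.0 and E7.2 libraries by number, left -8.84 points with an exact permutation p of 0.5, the smallest 2 pairs allow. No label ties the numbers to a litter or a day, so the comparison of stages was made without pairs, but for these 4 libraries the number coincides with the processing folder, within which the values were -11.3 and -6.35 points. Depth is unknown, so absence from a list, above all the short Ring1b and Wnt3a lists, does not show that a mark is missing.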

Other observations

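The H3K27me3-only regions were spread over chromosomes much like all 3397 shared H3K27me3 regions. Chromosome 2 held 159 of them (11.3%, against 11.0% of the shared regions), chromosome 11 held 120 (8.56% against 7.71%), chromosome 19 held 60 (4.28% against 4.68%) and the X chromosome 13 (0.927% against 0.589%). The X chromosome had few H3K27me3 regions in all, 20 shared ones, of which 13 were H3K27me3-only and 7 of these solitary. Among autosomes the H3K27me3-only share of the shared regions ran from 28.5% on chromosome 3 to 50.5% on chromosome 7. Copy number and the share of each chromosome that can be mapped were not measured, and genes were not counted.

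The longest run, chr11:98181935-98199269, held 9 H3K27me3-only and 3 marked regions over 17.3 kb, with no H3K4me3 region of 0 h inside and Ring1b in 1 and 3 regions of its replicates. Folds in it ran from 2.80 to 4.19 by the authors' values, and of the 9, 2 were listed again after Wnt3a, 0 at 6 h, 3 at 12 h and 2 at 72 h. A run of 8 on chromosome 10, chr10:81030163-81043610, held no marked region, 1 H3K4me3 region and no Ring1b region, and of the 8, 3 were listed again after Wnt3a, 2 at 6 h, 5 at 12 h and 3 at 72 h. A run of 6, chr16:22794090-22799349, held neither H3K4me3 nor Ring1b, and was listed in H3K27me3 for 0 regions after Wnt3a, 3 at 6 h, 4 at 12 h and 0 at 72 h.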
